A study of Mus musculus with 2 samples.

Results

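Hox cluster genes were taken as the protein-coding genes of 4 clusters, HoxA to HoxD, whose symbol is Hox, a cluster letter and a paralog number. There were 39 of them among 21474 protein-coding and 43346 annotated genes, 11 in HoxA, 10 in HoxB, 9 in HoxC and 9 in HoxD. All were measured in 1 group of megakaryocyte-erythroid progenitors (MEP) taken from mice, the common precursors of red cells and of megakaryocytes, the source of platelets. The cells came from female adult C57BL/6J mice aged 5 weeks, and the label describes them as CD34- with lineage and CD16/32 named in the same phrase. The group has 2 biological replicates under 1 donor identifier, each sequenced as a paired-end library of polyadenylated RNA. With 1 cell type and no treatment in the labels, the comparisons are between clusters, between positions in a cluster and between the 2 libraries, and no p-value is given.

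Hox proteins are transcription factors that bind DNA through a homeodomain, usually together with TALE homeodomain partners of the Pbx and Meis families. The deposited data are on mouse assembly mm10 (GRCm38), where HoxA lies on the minus strand of chromosome 6, HoxB at chr11:96194316-96368256, HoxC at chr15:102921103-103036852 and HoxD at chr2:74668310-74765142, all 3 on the plus strand. In the embryo the genes of a cluster are switched on in their order along the chromosome, from the low-numbered 3′ end to the high-numbered 5′ end, and they pattern the body axis. In blood, genes of the HoxA and HoxB clusters are known to be active in stem and early progenitor cells and to be turned down as cells mature. Trithorax-type complexes built on Kmt2a keep the clusters active, and Polycomb complexes keep them silent.

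The depth, as the total of expected counts over annotated genes, was 79539457 for replicate 1 and 65305321 for replicate 2. Under these totals 0 counts allowed a level of up to 0.0377 CPM (counts scaled to a library total of 1000000) in replicate 1 and 0.0459 CPM in replicate 2, from 3 counts and for counting error only. The levels below are TPM, which also correct for transcript length. As a sum, granulocyte and monocyte markers were far more abundant than those of the labelled cell type. The 8 granulocyte and monocyte markers summed to 31020 TPM in replicate 1 and 17117 TPM in replicate 2, and the 10 erythroid and megakaryocytic markers to 343 and 495 TPM. Most of the larger sum was Mpo, Elane and Prtn3, with 10136, 8624 and 10600 TPM in replicate 1 and 6523, 4337 and 5185 TPM in replicate 2. Ctsg and Cebpa were also above Klf1 (123.2 and 123.8 TPM), and Csf1r, Fcgr3 and Ly6g were below it. Of the erythroid and megakaryocytic markers 9 reached a TPM of 1 in both libraries, among them Klf1 and Itga2b. Alas2, an enzyme of haem synthesis, had 0.35 TPM in replicate 1 and 0.42 TPM in replicate 2. Cd34, whose protein the label gives as absent, had 69.1 TPM and 91.9 TPM.

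Hox expression in these libraries came from a few genes of HoxA and HoxB. A TPM of 1 or more in both libraries was reached by 9 of the 39 members, 7 in HoxA and 2 in HoxB, where 46.9% of all protein-coding genes reached it. Counts in both libraries were found for 17 members, 6 had counts in replicate 1 alone, 6 in replicate 2 alone, and 10 had no count in either. The shares of all protein-coding genes in these classes were not computed, so the numbers only describe the members. The 39 genes summed to 162 TPM in replicate 1 and 200.1 TPM in replicate 2. In bulk RNA, fewer cells that carry a transcript and less of it in each cell cannot be told apart.

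**Figure D1:**
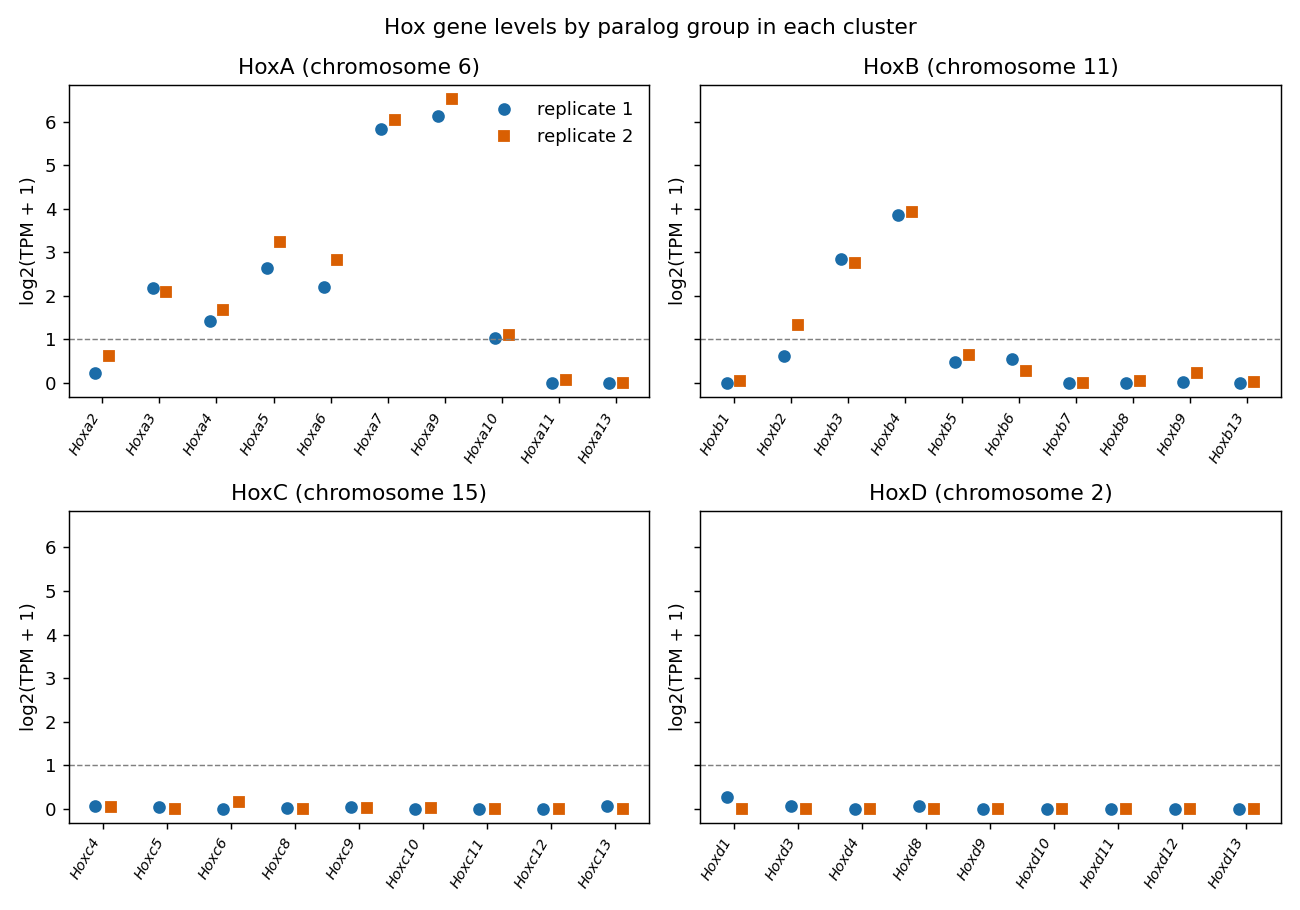
Level of the Hox genes in each library, as log2(TPM + 1) on the vertical axis, with genes in the order of their paralog number and 1 panel per cluster. Circles are replicate 1, squares are replicate 2, and the dashed line marks a TPM of 1. The high points are Hoxa7 and Hoxa9 in HoxA and Hoxb3 and Hoxb4 in HoxB, and all points of HoxC and HoxD lie under the line.

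Hoxa9, which drives expansion of stem and progenitor cells and is a leukaemia gene when overexpressed, had the highest level. The gene spans chr6:52223100-52231089 on the minus strand. It had 68.7 TPM in replicate 1 and 90.7 TPM in replicate 2, from 3733 and 4082 expected counts, and ranked above 90.9% and 92.5% of protein-coding genes. Hoxa7, its neighbour and a frequent companion in Kmt2a-rearranged leukaemia, spans chr6:52214491-52221854 on the same strand and had 56.2 TPM and 64.9 TPM, from 3700 and 3692 expected counts. Together these neighbours held most of the Hox transcripts, Hoxa9 with 42.4% and 45.3% of the summed Hox TPM and Hoxa7 with 34.7% and 32.5%. In each library the level of Hoxa9 was above that of Hoxa7, by 1.22 times in replicate 1 and 1.40 times in replicate 2. That order rests on how reads were divided among transcripts, since with the effective length of the longest coding transcript in place of that of the gene the ratio was 0.592 and 0.649.

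Hoxb4, whose forced expression expands mouse blood stem cells, came next. The gene spans chr11:96318267-96321638. It had 13.6 TPM in replicate 1 and 14.3 TPM in replicate 2, from 2178 and 1826 expected counts, and ranked above 74.7% of protein-coding genes in each library. Hoxb3, its neighbour, had 6.25 TPM and 5.78 TPM, and Hoxb4 exceeded it 2.17 times in replicate 1 and 2.47 times in replicate 2. These were the HoxB genes past the threshold, and the next in line, Hoxb2, a hindbrain patterning gene, had 0.53 TPM in replicate 1 and 1.51 TPM in replicate 2.

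The other detected HoxA genes lay between 1 and 9 TPM. Hoxa5 had 5.21 TPM in replicate 1 and 8.37 TPM in replicate 2. Hoxa6 had 3.58 TPM and 6.06 TPM. Hoxa3, needed for thymus and parathyroid development, had 3.52 TPM and 3.23 TPM. The levels of Hoxa5, Hoxb3 and Hoxa6 overlapped across the libraries, so their order is not fixed by these data, although within each library Hoxa5 exceeded Hoxa6, by 1.46 times in replicate 1 and 1.38 times in replicate 2. Hoxa4 had 1.70 TPM and 2.20 TPM. Hoxa10, which promotes progenitor growth when overexpressed, had 1.05 TPM and 1.16 TPM, from 161 and 149 expected counts, and so was the last member above the threshold. It stood just inside, with Hoxb2 just outside.

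In HoxA, Hoxa2 near the low-numbered end and Hoxa11 and Hoxa13 at the high-numbered end were close to silent. Hoxa2, a hindbrain gene of the 3′ end, had 0.18 TPM in replicate 1 and 0.54 TPM in replicate 2. Hoxa11, a limb and uterus gene, had no count in replicate 1 and 5 counts in replicate 2. Hoxa13, a gene of digits and the urogenital tract, had none in either library. In HoxB, Hoxb5, used in mouse to mark long-term stem cells, had 0.40 TPM and 0.55 TPM, and Hoxb6 had 0.46 TPM and 0.21 TPM. Hoxb8, which blocks myeloid maturation when overexpressed, had 0 and 4 counts, Hoxb9 had 3 and 21, Hoxb1 and Hoxb13 had 0 and 1 each, and Hoxb7 had none.

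HoxC and HoxD were near the limit of the measurement. No HoxC gene exceeded 0.12 TPM or 9 counts in either library, and the cluster summed to 23 counts in replicate 1 and 15 counts in replicate 2. HoxD summed to 37 counts in replicate 1 and to 0 counts in replicate 2, and 23 of the 37 belonged to Hoxd1, the 3′-most gene. Hoxd3 had 9 counts and Hoxd8 had 5 counts in replicate 1. The 6 other HoxD genes, Hoxd4 and the limb and genital patterning genes Hoxd9 to Hoxd13, had no count, and neither did Hoxc11 and Hoxc12. For the 10 Hox genes without a count, 3 counts would correspond to at most 0.066 TPM in replicate 1 and 0.083 TPM in replicate 2. This is no ceiling, as the authors' TPM intervals reached further for some of them. For Hoxa13 they reached 0.217 TPM in replicate 1 and 0.266 TPM in replicate 2.

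By cluster, HoxA held 140.3 TPM in replicate 1 and 177.3 TPM in replicate 2, and HoxB held 21.2 and 22.6 TPM. HoxC held 0.16 and 0.18 TPM, and HoxD held 0.3 and 0 TPM. As a share of the summed Hox TPM, HoxA took 87.6% ± 1.43 (SD, n = 2) and HoxB 12.2% ± 1.29 (SD, n = 2). HoxC took 0.0944% ± 0.00623 and HoxD 0.0926% ± 0.131 (SD, n = 2), and the HoxD share came from replicate 1 alone. The HoxA share was carried by Hoxa7 and Hoxa9, and without them HoxA took 45.2% and HoxB 54%. In CPM, with no correction for length, HoxA took 74.7% and HoxB 25%.

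The level did not follow the paralog number step by step. In HoxA the TPM was higher at Hoxa3 than at Hoxa2, was lower at Hoxa4, peaked at Hoxa7 and Hoxa9 and dropped at the next gene. Hoxa9 exceeded Hoxa10 by 65.5 times in replicate 1 and 78.2 times in replicate 2 in the deposited TPM, and by 18.2 and 21.5 times on the length of the longest coding transcript. Hoxa7 exceeded Hoxa6 by 15.7 times and 10.7 times in the deposited TPM, and by 8.61 and 6.37 times on that length. In HoxB the peak was at Hoxb4, which exceeded Hoxb5 by 33.9 times and 25.9 times, and Hoxb3 exceeded Hoxb2 by 11.8 times and 3.83 times. Spearman's rank correlation of the mean level with the paralog number was -0.12 over the 11 HoxA genes and -0.55 over the 10 HoxB genes, and in HoxA its sign turned with another coefficient (0.04, Pearson of log2(TPM + 1)). Genes of a cluster share a locus and a library and are not independent, so these coefficients are descriptions. Grouped over all clusters, the 8 anterior genes (groups 1 to 3) held 6.15% ± 0.79 of the Hox TPM, the 15 central genes (groups 4 to 8) 49.3% ± 1.26 and the 16 posterior genes (groups 9 to 13) 44.6% ± 2.05 (SD, n = 2). The posterior share was nearly all Hoxa9, with 68.7 of 69.9 TPM in replicate 1 and 90.7 of 92.1 TPM in replicate 2. On the longest coding length the anterior, central and posterior genes held 10.7%, 65.6% and 23.7%, and in CPM 12.6%, 54.7% and 32.7%.

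Paralogs, the genes of 1 number in different clusters, differed more than neighbours did in some groups. In group 9, with Hoxd9 set to 3 counts per library, Hoxa9 exceeded it by at least 3027 times in replicate 1 and at least 3184 times in replicate 2 in the deposited TPM. On the longest coding length these bounds were 805 and 879 times. In group 7, with Hoxb7 set to the same 3 counts, Hoxa7 exceeded it by 856 times and 785 times in the deposited TPM. On the longest coding length it did so by 783 and 781 times. These are not lower bounds, as the authors' TPM intervals for Hoxb7 reached 0.208 in replicate 1 and 0.268 in replicate 2. The 3 counts corresponded to 0.066 and 0.083 TPM. In group 4 the order of the clusters turned round, and Hoxb4 exceeded Hoxa4 by 7.98 times in replicate 1 and 6.48 times in replicate 2. In group 3, Hoxb3 exceeded Hoxa3 by 1.78 times in replicate 1 and 1.79 times in replicate 2. In group 5, Hoxa5 exceeded Hoxb5 by 13 times and 15.2 times.

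At the transcript level Hoxa9 was assigned mainly to a short coding form. Hoxa9-202, of 851 bases, took 95.2% of the Hoxa9 TPM in replicate 1 and 93.5% in replicate 2, from 3078 and 3167 expected counts. The full-length form Hoxa9-201, of 3226 bases, took 4.42% and 5.40%, from 621 and 799 expected counts. All 851 exon bases of the short form also lie in exons of the full-length form, which has 2375 exon bases of its own. The short form splices out 173 of these 2375 bases from the first exon, at chr6:52225618-52225790 on the minus strand of GRCm38. It lacks the others because it is annotated with shorter ends. It starts 1181 bases past the start of the full-length form and ends 3249 bases past it, against 4270. The annotated reading frame of the short form ends in a stop codon 1 base past the junction. Of the 813 coding bases (271 codons) of the full-length form, 315 coding bases (105 codons) remain. The homeobox lies at the 3′ end of the full-length coding sequence. A truncated Hoxa9 product made by internal splicing and lacking the homeodomain is known in mouse. Both sequences are shown because the split between them sets the Hoxa9 level. They run from 15 bases before to 15 bases after the splice and are taken from GENCODE M21 transcripts, chr6:52225603-52225805, minus strand. Capitals mark the 173 bases kept in the full-length form and the stop codon in the short form.
Hoxa9-201: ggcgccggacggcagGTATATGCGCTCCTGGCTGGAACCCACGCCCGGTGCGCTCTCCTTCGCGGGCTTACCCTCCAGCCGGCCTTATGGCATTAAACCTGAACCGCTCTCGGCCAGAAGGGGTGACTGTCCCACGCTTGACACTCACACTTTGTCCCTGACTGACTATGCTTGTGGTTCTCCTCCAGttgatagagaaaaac
Hoxa9-202: ggcgccggacggcagtTGAtagagaaaaac

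Hoxa7 was also divided among several transcripts. Hoxa7-203, annotated as coding and 643 bases long, took 55.4% of the Hoxa7 TPM in replicate 1 and 42.6% in replicate 2. It shares 423 of its exon bases with Hoxa7-201 and has no part of the second Hoxa7-201 exon, of 1533 bases. Hoxa7-205, annotated as a target of nonsense-mediated decay and 2031 bases long, took 31.5% and 36.4%, and held 60% and 63.9% of the Hoxa7 counts. The longest coding transcript, Hoxa7-201, took 4.07% and 4.49%. Hoxa7-205 shares 1801 of its exon bases with Hoxa7-201. Reads in shared exons are divided by the quantification model, and reads across single junctions are not given in the tables used here.

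**Figure D2:**
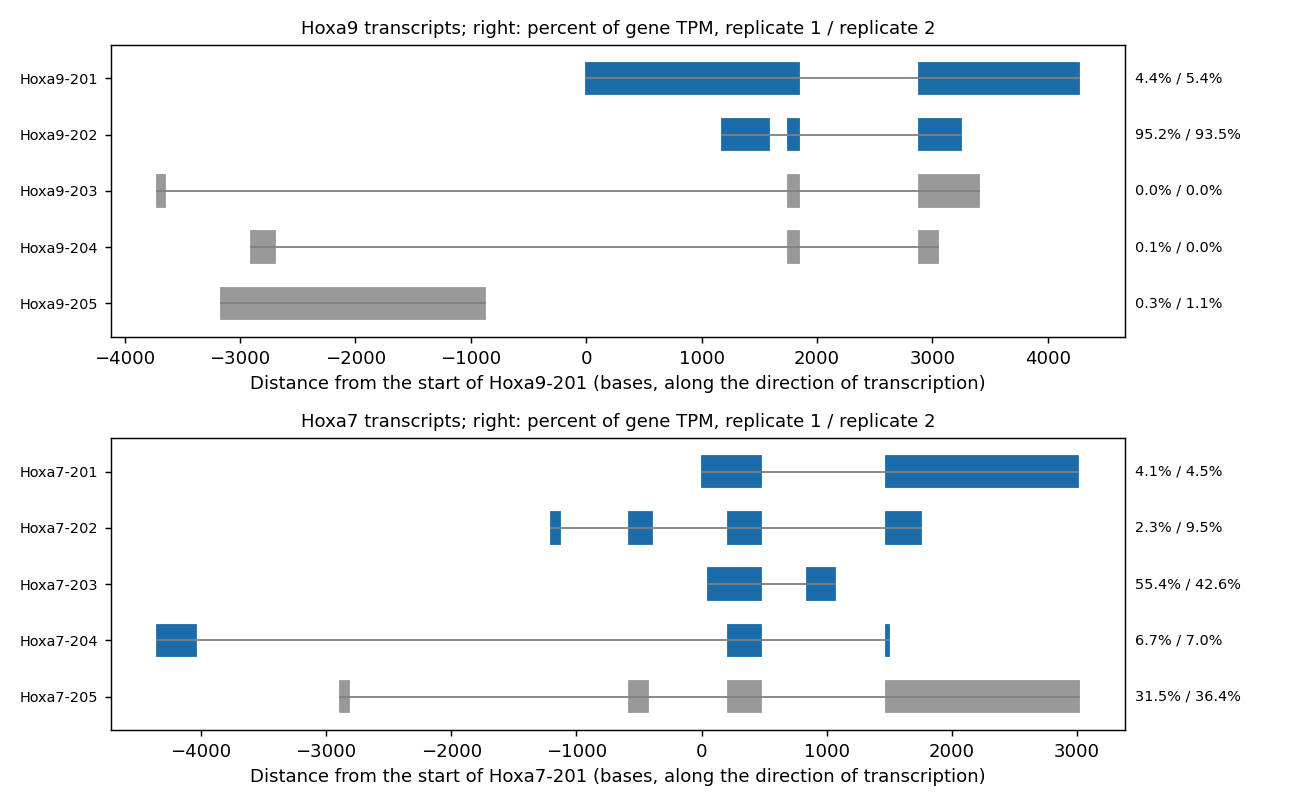
Exons (boxes) of the annotated Hoxa9 and Hoxa7 transcripts on GENCODE M21, against distance in bases from the start of the 201 form, with coding transcripts in blue and others in grey. The percent of the gene's TPM in replicate 1 and replicate 2 stands at the right, 95.2% and 93.5% for Hoxa9-202, whose exons all lie within those of Hoxa9-201.

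The other detected members were simpler. In all 9 the most abundant transcript was the same in replicate 1 as in replicate 2, and 5 of the 9 have more than 1 transcript in the tables. Hoxa4, Hoxa5, Hoxa6 and Hoxb4 have 1 transcript each, so for them this was fixed in advance. The share over all detected genes was not computed. In 7 of the 9 that transcript was also the longest coding one, Hoxa7 and Hoxa9 being the exceptions. This too was fixed in advance for the members with 1 transcript. Hoxb3 was divided between Hoxb3-202 with 61.5% and 73.2% and Hoxb3-201 with 38.6% and 26.8%. Hoxa10-202 held 86.5% of the Hoxa10 TPM in replicate 1 and 100% in replicate 2. With the longest coding length for every gene, Hoxa9 had 18.3 TPM in replicate 1 and 25 TPM in replicate 2, Hoxa7 had 30.8 and 38.6 TPM, and Hoxb4 had 13.6 and 14.3 TPM. On that scale Hoxa9 exceeded Hoxb4 by 1.35 times and 1.76 times, against 5.07 times and 6.36 times in the deposited TPM.

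**Figure D3:**
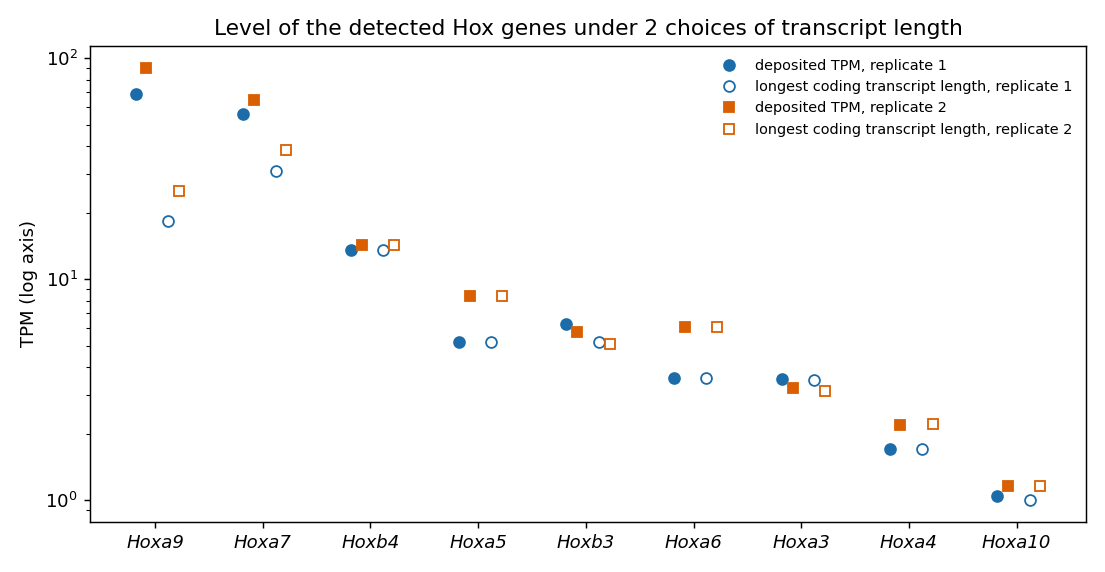
Level of the 9 detected Hox genes on a log axis in TPM, as deposited (filled) and with the effective length of the longest coding transcript (open). Circles are replicate 1 and squares are replicate 2. Hoxa9 and Hoxa7 move down and change places. Hoxb4, Hoxa5, Hoxa6 and Hoxa4 hardly move, which was fixed in advance because each has 1 transcript.

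Neighbouring RNAs of the clusters were mostly not detected. Of 45 other annotated genes inside the clusters 8 had counts and 2 reached a TPM of 1 in both libraries. Hotairm1, an antisense RNA of the 3′ end of HoxA that is induced in human cells during granulocytic maturation, had 5.50 TPM in replicate 1 and 6.67 TPM in replicate 2, from 107 and 68.3 expected counts. Hoxa2, from the same end of the cluster, was below 1 TPM in both libraries. The other was Gm28308, whose exons share 482 bases with Hoxa3 on the same strand, with 1.19 TPM and 1.29 TPM. Hoxb5os had 0.76 TPM and 1.63 TPM. Hoxb3os, antisense to Hoxb3 and Hoxb2, had 0.11 TPM in replicate 1 and 0.92 TPM in replicate 2, from 16 and 103 counts. The 6 microRNA genes, Mir10a, Mir10b, Mir196a-1, Mir196a-2, Mir196b and Mir615, had no counts, and so did Hotair. These microRNA genes and some other short RNA genes, such as Gm27868, had an effective length of 0. A count of 0 was therefore fixed in advance for them. Gm53 had no counts either, but its TPM intervals reached 25.1 in replicate 1 and 33.8 in replicate 2. Libraries of polyadenylated RNA do not sample mature microRNAs. The sources used here do not give the strand handling. An antisense gene overlaps 4 detected members and also Hoxb2, so reads of such pairs cannot be told apart.

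The levels of the flanking genes differed from side to side and from cluster to cluster. Evx1 and Evx2, homeobox genes beyond the group 13 end of HoxA and HoxD, had 0.13 and 0 TPM in replicate 1 and 0.22 and 0 TPM in replicate 2. Beyond them Hibadh had 12.9 TPM and 14 TPM, and Lnpk had 9.03 TPM and 9.16 TPM. On the group 1 side Skap2 had 12.2 TPM and 9.38 TPM next to HoxA, and Mtx2 had 27.3 TPM and 26.2 TPM next to HoxD. HoxD, without counts in replicate 2, thus had Lnpk on the one side, beyond Evx2, and Mtx2 on the other. HoxC lay between Calcoco1, with 23.3 TPM and 30.5 TPM, and Smug1, with 0.62 TPM and 0.92 TPM. Next to HoxB, Ttll6 and Calcoco2 on the group 13 side had no counts, and Skap1 on the group 1 side had 0.84 TPM and 0.33 TPM, below Hoxb3 and Hoxb4 in both libraries. Further out the genes were expressed. Atp5g1 on the group 13 side had 331.3 TPM in replicate 1 and 308.5 TPM in replicate 2. On the group 1 side Snx11 had 11.8 TPM and 11.0 TPM, and Cbx1 had 42.8 TPM and 69.0 TPM.

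Promoters of 22 members are in the RefSeq table for GRCm38.p6, each 250 bases before to 50 bases after a transcript start. By their median they held more CG pairs than the genes of that table. The median ratio of observed to expected CG pairs was 0.706 over the 22, against 0.389 over 27025 genes. Those genes were not limited to coding ones and entered with their first listed promoter. A member entered with the promoter nearest the start of its longest coding transcript. Among the 22 the median was 0.657 over the 7 detected members and 0.754 over the other 15. Hoxa9 had a ratio of 0.28, the lowest of the 22, and the silent Hoxd9 had 0.573. The promoters of this paralog pair are shown as the extremes of expression in group 9, with CG in capitals. The Hoxa9 window lies at the start of Hoxa9-201, which took 4.42% and 5.40% of the Hoxa9 TPM. Hoxa9-202, with 95.2% and 93.5%, is annotated to start 1181 bases downstream, outside the window. Hoxa9 is at chr6:52227321-52227620 on the minus strand and Hoxd9 at chr2:74697513-74697812 on the plus strand.
Hoxa9: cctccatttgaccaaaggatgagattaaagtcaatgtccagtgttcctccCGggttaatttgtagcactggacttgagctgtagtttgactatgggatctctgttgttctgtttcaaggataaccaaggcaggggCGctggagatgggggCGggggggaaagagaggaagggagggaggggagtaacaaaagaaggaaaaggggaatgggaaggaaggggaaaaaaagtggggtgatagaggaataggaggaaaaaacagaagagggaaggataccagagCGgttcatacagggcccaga
Hoxd9: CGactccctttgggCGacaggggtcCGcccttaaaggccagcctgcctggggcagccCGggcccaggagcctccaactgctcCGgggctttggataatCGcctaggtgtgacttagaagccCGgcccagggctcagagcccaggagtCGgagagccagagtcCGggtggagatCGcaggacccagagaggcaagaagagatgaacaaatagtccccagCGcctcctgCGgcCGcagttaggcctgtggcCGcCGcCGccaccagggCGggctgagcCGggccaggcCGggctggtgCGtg

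Hoxa9 has 4 CG pairs in this window and Hoxd9 has 20. The Meis core letters TGACAG, on either strand, occurred in 2 of the 22 promoters (Hoxa2 and Hoxa3) and in 19.3% of the first listed promoters of all genes. The composite Pbx and Hox letters TGATTNAT occurred in 2 of the 22 (Hoxa2 and Hoxd11) and in 3.36% of all. Neither was in the Hoxa9 or Hoxd9 window, which says only that these letters are not there. In Hoxa2 the 2 motifs did not overlap. The matches are descriptions of letters, not of binding.

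The partners of Hox proteins were well expressed. Of 11 TALE cofactors 8 reached a TPM of 1 in both libraries, where 46.9% of all protein-coding genes did. Meis1, which cooperates with Hoxa9, had 45.1 TPM in replicate 1 and 82.1 TPM in replicate 2. Pbx2 had 83.3 TPM and 89.9 TPM, and Pbx4 had 54.8 TPM and 83.3 TPM. Pbx3 was lower, with 7.52 TPM and 8.60 TPM. Meis2 had 0.05 TPM and 0.02 TPM, so within the Meis family Meis1 was the main member in both libraries, with Meis3 at 0.97 TPM and 1.44 TPM.

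Regulators of the clusters were present on both sides. For comparison, 46.9% of all protein-coding genes reached a TPM of 1 in both libraries. All 16 activating regulators of Hox chromatin on the list reached a TPM of 1 in both libraries, with Kmt2a, the histone H3 methyltransferase, at 8.99 TPM in replicate 1 and 17.8 TPM in replicate 2. Men1, a Kmt2a partner, had 130.3 TPM and 110 TPM, and Dot1l, which methylates histone H3 within gene bodies, had 127.8 TPM and 177.1 TPM. All 13 Polycomb subunits did so too, among them Ezh2 with 24.8 TPM and 29.4 TPM and Eed with 118.6 TPM and 164.8 TPM. Of the upstream factors 4 of 9 did, and these were retinoid receptors, such as Rara with 64.7 TPM and 64.5 TPM. The Cdx genes, activators of Hox genes in the embryo, did not, with Cdx1 and Cdx4 at 0 counts and Cdx2 at 0.03 TPM in replicate 1 and 0 TPM in replicate 2. None of the 5 ParaHox and flanking homeobox genes reached a TPM of 1.

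All 9 genes listed as reported targets of Hoxa9 or Meis1 in mouse blood cells were detected, where 46.9% of all protein-coding genes were. The list was chosen with earlier results of these data known, so its full detection is no measure of Hox activity. Lmo2, a partner of Gata factors, had 416.4 TPM in replicate 1 and 488.5 TPM in replicate 2, Myb had 68.8 TPM and 80.6 TPM, and Flt3, a receptor of multipotent progenitors, had 15.4 TPM and 33.4 TPM. Flt3 and Meis1 are also on the stem and multipotent progenitor list.

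Between the libraries most detected Hox genes were slightly higher in replicate 2. After TMM scaling, which sets the libraries to a common level over most genes, 6 of the 9 were higher in replicate 2, where 47.4% of detected protein-coding genes were. By deposited TPM it was 7 of the 9, where 59.8% of detected protein-coding genes were. The median log2 difference, replicate 1 minus replicate 2, was -0.22 over the 9 and 0.02 over the 10061 detected protein-coding genes. Hoxa6 differed by -0.65, Hoxa5 by -0.58, Hoxa9 by -0.35, Hoxa4 by -0.27, Hoxa7 by -0.22 and Hoxa10 by -0.11. Hoxa3 differed by 0.26 and Hoxb3 by 0.13, and Hoxb4 differed by 0.03, or by -0.07 as a ratio of TPM. The 6 genes higher in replicate 2 after TMM scaling were all in HoxA, where Hoxa3 was the exception.

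None of the 9 detected members differed by 2-fold between the libraries. Of the 5 members that averaged at least 5 TPM, 0 were over 2-fold apart with separate TPM intervals, where 1.37% of protein-coding genes of that level were. The authors' TPM intervals, which cover quantification error within a library, were separate for Hoxa5, Hoxa6, Hoxa7 and Hoxa9 and overlapped for the 5 others, and 60.6% of detected protein-coding genes had separate intervals. The median size of the difference was 0.26 on the log2 scale over the 9, and 0.21 over all detected protein-coding genes, of which 90% lay under 0.61. Among the 10 members with a mean of at least 1 TPM, 1 was over 2-fold apart with separate intervals, Hoxb2, where 2.61% of protein-coding genes of that level were. Hoxb2 shares 953 exon bases with the antisense Hoxb3os, which was also higher in replicate 2, and reads of the pair cannot be told apart. Without a filter on the level 4 members were over 2-fold apart, where 4.56% of protein-coding genes were. Hoxd1, with 23 counts in replicate 1 and 0 in replicate 2, was at least 6.3 times higher in replicate 1 with 3 counts set for replicate 2. The other 3 were higher in replicate 2, Hoxa2 and Hoxb2 with the values above and Hoxb9 with 0.02 TPM in replicate 1 and 0.18 TPM in replicate 2.

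Marker genes of other blood cells moved between the libraries as well. Of the 8 stem and multipotent progenitor markers 6 were detected and all 6 were higher in replicate 2, with a median log2 difference of -0.44 and a sum of 205.5 TPM in replicate 1 and 319.6 TPM in replicate 2. Of the 8 granulocyte and monocyte markers 7 were detected and all 7 were higher in replicate 1, with a median of 0.83. The 4 B cell markers were higher in replicate 1, with a median of 1.54 and a sum of 63.3 and 21 TPM. Of the 10 erythroid and megakaryocytic markers 9 were detected and 7 of them were higher in replicate 2, with a median of -0.23. As ratios of deposited TPM all 9 were higher in replicate 2, with a median of -0.69. Of the 4 T cell markers 1 was detected, Lck, with 6.47 TPM in replicate 1 and 7.90 TPM in replicate 2. No marker on these lists was at 0 in either library. The TALE cofactors had a median of -0.28, with 6 of the 8 detected ones higher in replicate 2, and the 9 listed targets had a median of -0.40, with all 9 higher in replicate 2. The activating regulators had a median of -0.06 and the Polycomb subunits one of -0.17. As log2 ratios of deposited TPM, where the median of all detected protein-coding genes was -0.08, the medians were -0.46 for the TALE cofactors (all 8 higher in replicate 2), -0.43 for the targets, -0.19 for the activating regulators and -0.43 for the Polycomb subunits. On that scale the stem list had -0.64, the granulocyte and monocyte list 0.73, the B cell list 1.45 and the 9 Hox genes -0.21. The part of the mix of cells in the Hox differences was not tested.

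**Figure D4:**
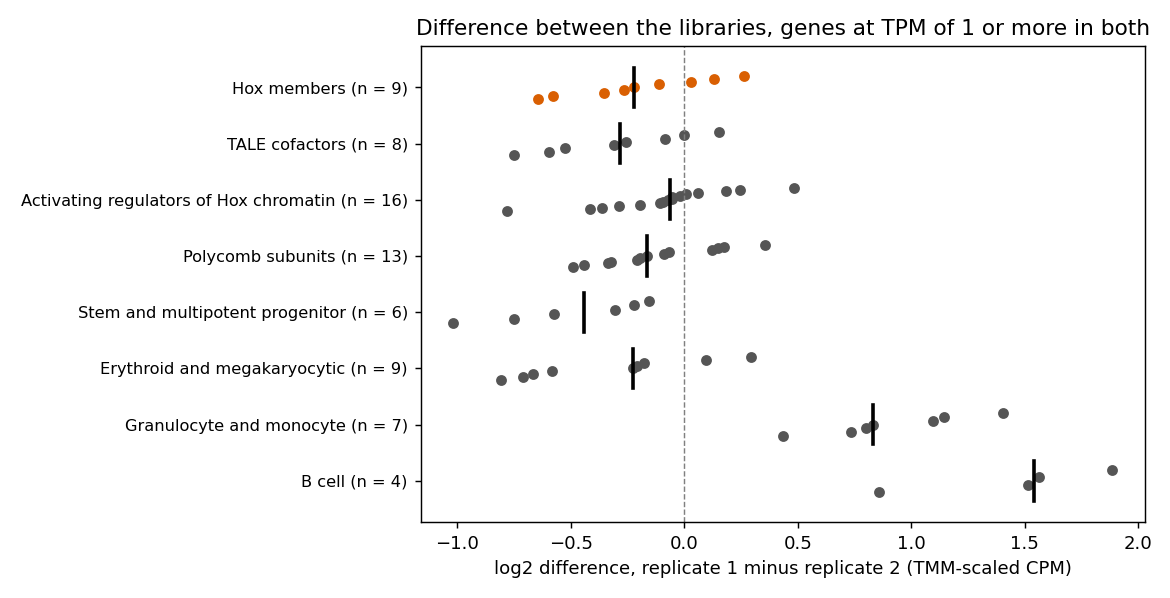
log2 difference between the libraries, replicate 1 minus replicate 2, in TMM-scaled CPM, for genes at a TPM of 1 or more in both. Each point is a gene, the bar is the list's median and n its number of genes. The Hox points, in orange, lie between -0.65 and 0.26, with the granulocyte and monocyte and the B cell points all above 0.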

How the data were processed

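Poly(A) RNA-seq of 1 group of 2 libraries was analysed, numbered as biological replicates in the labels. The sources used here do not say whether they came from separate animals, so the SD measures the spread between these libraries, which may be technical. The assembly was mm10 per the labels, and the annotation GENCODE M4 per the text file deposited with each sample. The sources used here do not give the aligner, the quantifier or the strand handling. The labels mention no molecular identifiers.

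Each gene and each transcript has an expected count, an estimate by the authors that can be fractional, per the file headers. TPM as deposited is this count over the effective length, scaled so that a library sums to 1000000. FPKM as deposited is per kilobase and per 1000000 fragments. The authors' percent column is the part of a gene's abundance that a transcript holds, per the file headers. The authors' TPM intervals belong to their posterior mean, and the headers do not state their level.

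Identifiers without version were matched to GENCODE M21 (42462 matched, 884 did not), which gave symbols, types and GRCm38 coordinates. Spike-in and numeric rows were left out of library totals. Expected counts were rounded to whole numbers and scaled by TMM (factors 0.98 and 1.02) in edgeR 4.0.16 (R 4.3.3) with a prior count of 2 for log2 CPM, and DESeq2 1.42.0 gave alternative size factors. The scaling was tested on simulated data. Python 3.11.15 served for other steps, with pandas 2.3.3, numpy 2.4.6 and scipy 1.17.1. A member was detected at a TPM of 1 or more in both libraries. Libraries were called apart where a gene of mean TPM at or above 5 differed over 2-fold with separate TPM intervals. The level on the longest coding length divides the gene's count by that transcript's effective length.

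Named genes were all members, genes inside the clusters, the 3 nearest protein-coding genes on each side, and the members of the cofactor, chromatin, upstream, ParaHox, target and marker lists. Members and lists were chosen with earlier results of these data known. Alternatives changed the threshold, unit, length, statistic, filter and scaling, or left out 1 library. Protein sequences were not analysed here, and single values of some members are not reported here.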

Additional observations from a re-analysis of the deposited data

How the results depend on the processing

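Of 107 alternatives to the values reported, 64 kept their sign and moved by less than the spread between libraries or genes (for a count, 1.5 times), 41 moved and 2 reversed. The number of detected members was 9, and it was 14 at a TPM of 0.1 or more, 5 at a TPM of 5 or more and 14 at an expected count of 10 or more. The HoxA share of 87.6% was 74.7% in CPM without length correction, 77.2% over members that share no exon with another gene on their strand (which leaves out Hoxa9 and Hoxa3 among the detected ones), 77.6% on the longest coding length and 45.2% without Hoxa7 and Hoxa9. The HoxB share was 25%, 22.5%, 22% and 54% in the same order. HoxC took 0.222% by the posterior mean TPM, 0.152% in CPM, 0.148% without shared exons and 0.172% on the longest coding length, and HoxD took 0.251% by the posterior mean TPM. The anterior, central and posterior shares of 6.15%, 49.3% and 44.6% were 10.7%, 65.6% and 23.7% on the longest coding length and 12.6%, 54.7% and 32.7% in CPM. Spearman's coefficient in HoxA was -0.11 by the posterior mean, -0.15 in CPM, -0.14 by distance and -0.13 on the longest coding length, and Pearson's coefficient of log2(TPM + 1) reversed to 0.044. In HoxB it was -0.48 by the posterior mean and -0.45 in CPM, and Pearson's was -0.42. Leaving out 1 library gave -0.118 to -0.114 in HoxA and -0.547 to -0.469 in HoxB. The count of members over 2-fold apart was 0, and it was 1 (Hoxb2) at a mean TPM of 1 or more, where 2.61% of protein-coding genes were called, and 4 with no filter. Restricted to members at a TPM of 5 or more, 5 of 5 had the same most abundant transcript, which was fixed in advance for Hoxa5 and Hoxb4. The Hoxb4 difference of 0.03 reversed to -0.073 as a log2 TPM ratio. The cause was not tested. The longest coding length, the paralog class shares and ratios on other scales, and the shares without Hoxa7 and Hoxa9 were chosen after seeing the data. No paired analysis was possible because there is 1 group. Depth limits HoxC and HoxD, whose genes had at most 23 counts.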
